A study of Mus musculus with 15 samples.

Results

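The 10 genes Ttr, Kl, F5, Folr1, Slc4a5, Aqp1, Car12, Otx2, Mfrp and Tmem72 are genes whose transcripts are known to be abundant in choroid plexus epithelium. They were followed in 15 bulk RNA-seq libraries of mouse thalamus, and they are 10 of the 29659 genes listed in each library. All 10 passed the level filter (a log2 value of 3.32, or 10 when taken out of the log, reached in 3 or more libraries), as did 15804 of the 29659 listed genes. The genes, and the 2 libraries in which they stood highest, were chosen from these same values, so the comparison of those 2 libraries with the other 13 is a description and carries no test. The mice were 4.5 months old and fell into 4 genotypes. 5EL mice (n = 5) were 5xFAD/APOE4+/+/Lilrb4a+/+ and 5ELKO mice (n = 4) were 5xFAD/APOE4+/+/Lilrb4a-/-. EL mice (n = 3) and ELKO mice (n = 3) were APOE4 knock-in animals without 5xFAD, with Lilrb4a intact in EL and deleted in ELKO. All 4 groups therefore carried human APOE4 in place of mouse Apoe by their labels, no group was wild type, and the Lilrb4a deletion was present in every cell of the knockout animals. 5xFAD is a transgenic mouse model that develops amyloid plaques.

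The choroid plexus is a sheet of epithelium around vascular stroma that hangs in the brain ventricles and secretes cerebrospinal fluid. Its epithelial cells move water, bicarbonate and folate from blood to fluid, close the blood to fluid barrier with tight junctions, and export carrier proteins, of which transthyretin is the best known. The plexus of the third ventricle lies along the dorsal midline of the thalamus and that of the lateral ventricles beside it, so a thalamic dissection can carry a strip of plexus. In bulk tissue of this kind, fewer cells of a type and less RNA per cell cannot be told apart.

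The deposited values were on a log2 scale and ran from -2.27 to 18.98. Low genes had been drawn together, with a median within-group SD of 0.00258 for genes with a mean below 0, 0.0857 for means from 4 to 6, where 7 of the 10 genes lie in the other 13 libraries, and 0.107 for means from 6 to 8, so that differences of genes near the floor are understated. The values are not counts, so the number of reads behind a single one cannot be read from them, and read totals given in the study were not used here. The median of the tested genes lay between 8.51 and 8.54 in every library, and 0 of the 105 pairs of libraries held identical values. The deleted gene itself, Lilrb4a, did not exceed 2.33 in the 7 knockout libraries and did not fall under 2.34 in the 8 with the gene intact. Mouse Apoe ran from 5.92 to 6.37 in 14 libraries but reached 10.90 in ELKO replicate 1, which goes against the knock-in label of that library, so results that rest on the ELKO group are also given without it.

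Promoter sequences of 8 of the 10 genes were read, as 11 windows of the 250 bases before an annotated transcription start (RefSeq, GRCm38.p6). Ttr was left out of this search, and no window was available for Folr1. The 11 windows were searched on both strands for TAATCC, the core that Otx-type homeodomain factors prefer, whose reverse complement is GGATTA. It was found in 2 of the 11 windows, against 2054 of all 32851 promoter windows (6.25%) and 1117 of the 19847 windows of genes listed here (5.63%). The other match lay in 1 of the 4 Otx2 windows, inside an annotated exon, and is not shown. With so few windows the count is a description, a match is not a binding site, and the absence of these 6 letters says nothing about the factor. The windows of Mfrp, which holds the match, and of Kl and F5, which rank next to Ttr below and hold none, are shown 5′ to 3′ with the match in capitals. The Mfrp sequence (chr9:44101520-44101728, plus strand) ends 42 bases before the start because the bases after it are annotated as exon, and its match lies at -134 to -129 on the minus strand. The Kl sequence is chr5:150952357-150952606 and the F5 sequence chr1:164151585-164151834, both on the plus strand. GC content was 66.8% in the Kl window, 58.4% in the full Mfrp window and 57.2% in the F5 window.
Mfrp: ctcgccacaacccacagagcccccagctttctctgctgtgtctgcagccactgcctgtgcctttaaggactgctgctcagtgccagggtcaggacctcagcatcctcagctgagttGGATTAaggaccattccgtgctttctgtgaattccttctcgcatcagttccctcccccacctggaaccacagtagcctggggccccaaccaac
Kl: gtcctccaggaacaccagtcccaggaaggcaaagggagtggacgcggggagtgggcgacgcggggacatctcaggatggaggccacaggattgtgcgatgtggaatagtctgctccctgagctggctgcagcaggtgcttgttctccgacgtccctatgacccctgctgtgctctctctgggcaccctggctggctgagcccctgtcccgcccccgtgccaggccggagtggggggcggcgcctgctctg
F5: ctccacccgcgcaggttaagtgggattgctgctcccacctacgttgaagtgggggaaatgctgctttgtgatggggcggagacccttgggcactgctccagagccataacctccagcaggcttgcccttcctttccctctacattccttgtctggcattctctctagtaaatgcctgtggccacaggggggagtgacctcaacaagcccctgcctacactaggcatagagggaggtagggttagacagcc

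Of the 10 genes, all 10 had 5EL replicate 1 and ELKO replicate 2 above every one of the other 13 libraries. Over all 15804 tested genes, 250 (1.58%) showed the same separation upwards and 75 the reverse. The median log2 difference of the 2 libraries from the other 13 was 2.2 for the 10 genes and -0.0022 for all tested genes. The median separates the genes from the background, but it was the property by which the libraries were selected. A total of 27 tested genes exceeded 1 log2 unit, 9 of them among the 10, and 0 genes fell below -1. ELKO replicate 2 was above 5EL replicate 1 for each of the 10 genes, by 0.14 (Tmem72) to 0.95 (Ttr) log2 units.

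**Figure D1:**
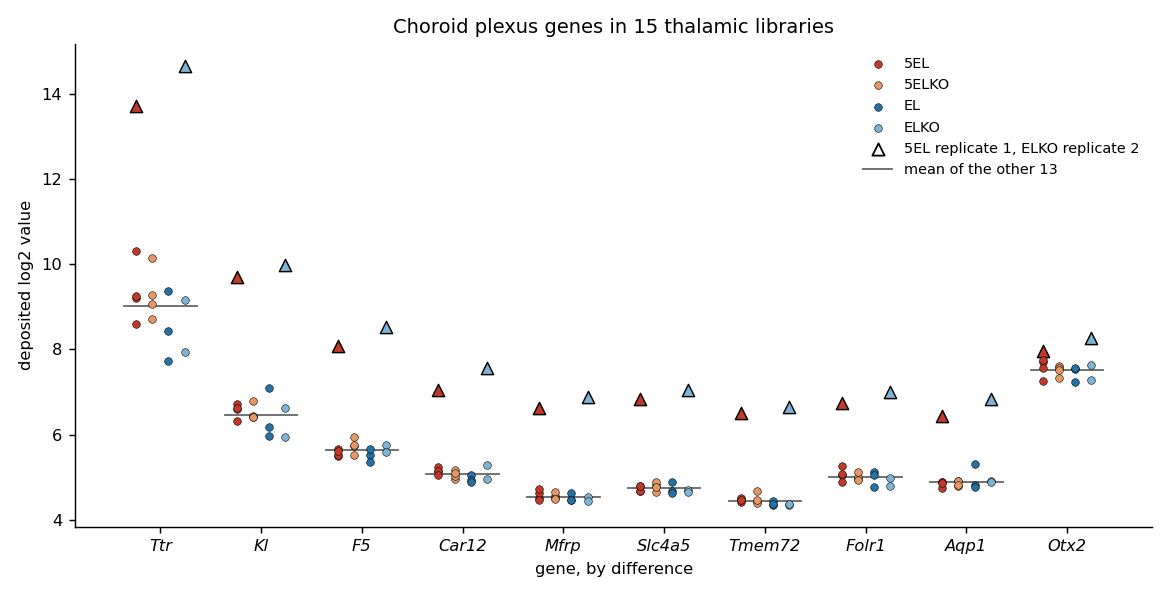
Deposited log2 value (vertical axis) of the 10 choroid plexus genes (horizontal axis, ordered by difference) in 15 thalamic libraries, 1 point per library coloured by genotype, with triangles for 5EL replicate 1 and ELKO replicate 2 and a line at the mean of the other 13. The triangles of Ttr stand at 13.71 and 14.66 above a highest other value of 10.31, whereas those of Otx2 stand at 7.98 and 8.26, close to the highest other value of 7.76.

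The secreted and membrane-anchored factors differed most. Ttr (chromosome 18, 20665280 to 20674321, plus strand) encodes transthyretin, the carrier of thyroxine and of retinol-binding protein in cerebrospinal fluid. In the mice with 5xFAD, its log2 value was 13.71, 9.21, 10.31, 8.59 and 9.27 in 5EL replicates 1 to 5 and 9.07, 8.72, 10.16 and 9.27 in 5ELKO replicates 1 to 4. Without 5xFAD it was 8.43, 9.37 and 7.72 in EL replicates 1 to 3 and 9.16, 14.66 and 7.94 in ELKO replicates 1 to 3. The 2 libraries exceeded the mean of the other 13, 9.02 ± 0.75 (SD, n = 13), by 5.17 log2 units, or 35.9-fold, and the lower of them exceeded the highest of the 13 by 3.40. Ttr was also the most variable of the 10 within the 13, which spanned 6.0-fold.

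Kl (chromosome 5, 150952607 to 150993817, plus strand) encodes α-klotho, the coreceptor that lets FGF23 act through FGF receptors and that is also shed into fluid. Its values were 9.69, 6.60, 6.73, 6.33 and 6.62 in 5EL and 6.44, 6.42, 6.78 and 6.40 in 5ELKO, in replicate order. EL mice had 6.18, 7.08 and 5.97, and ELKO mice had 6.63, 9.99 and 5.95. Outside the 2 libraries the highest value was that of EL replicate 2. The difference was 3.37 log2 units, or 10.3-fold, above a mean of 6.47 ± 0.32 (SD, n = 13), with a gap of 2.61 between the nearest libraries.

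F5 (chromosome 1, 164151838 to 164220277, plus strand) encodes coagulation factor V, the cofactor of factor Xa in the prothrombinase complex. The 5EL values were 8.08, 5.50, 5.65, 5.53 and 5.61 and the 5ELKO values 5.53, 5.74, 5.95 and 5.77. In EL it stood at 5.51, 5.67 and 5.36, and in ELKO at 5.75, 8.53 and 5.58. The 13 libraries spanned only 1.51-fold (5.63 ± 0.15, SD, n = 13), and the 2 libraries exceeded them by 2.68 log2 units, or 6.40-fold, with a gap of 2.13. F5 is also a plasma protein gene of hepatocytes, and the values of the liver gene Alb were 6.55 and 6.23 in the 2 libraries, below the 8.59 of EL replicate 1, where F5 stood at 5.51. In 5ELKO replicate 3, however, Alb was 8.38 and F5, at 5.95, was the highest of the 13. The part of hepatocyte RNA in the F5 values was not tested.

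The transporters differed less. Folr1 (chromosome 7, 101858331 to 101870788, minus strand) encodes folate receptor α, which carries folate across the plexus. It measured 6.74, 5.05, 5.27, 4.88 and 5.08 in 5EL and 4.97, 5.00, 5.12 and 4.92 in 5ELKO. The EL libraries gave 5.13, 5.05 and 4.76 and the ELKO libraries 4.98, 6.99 and 4.79. The difference was 1.87 log2 units, or 3.65-fold, above 5.00 ± 0.14 (SD, n = 13).

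Slc4a5 (chromosome 6, 83219828 to 83304945, plus strand) encodes an electrogenic sodium bicarbonate cotransporter of the apical, ventricle-facing membrane. Values in 5EL were 6.83, 4.67, 4.80, 4.67 and 4.79, and those in 5ELKO were 4.82, 4.66, 4.89 and 4.78. They were 4.68, 4.89 and 4.62 in EL and 4.70, 7.04 and 4.66 in ELKO. Its 13 libraries spanned 1.21-fold, the narrowest range of the 10 genes, and the 2 libraries stood 2.2 log2 units (4.58-fold) above their mean of 4.74 ± 0.09 (SD, n = 13).

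Aqp1 (chromosome 6, 55336432 to 55348555, plus strand) encodes the apical water channel. Its 5EL values were 6.45, 4.74, 4.88, 4.89 and 4.87, and its 5ELKO values 4.79, 4.91, 4.92 and 4.82. EL mice measured 4.82, 4.76 and 5.31 and ELKO mice 4.91, 6.83 and 4.88. The highest of the 13 was thus EL replicate 3, the library in which Ttr, at 7.72, was lowest of all 15. The difference of the 2 libraries was 1.76 log2 units, or 3.38-fold, above 4.88 ± 0.14 (SD, n = 13).

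Car12 (chromosome 9, 66713686 to 66766845, plus strand) encodes a membrane-bound carbonic anhydrase that faces the outside of the cell and interconverts carbon dioxide and bicarbonate. It stood at 7.06, 5.14, 5.23, 5.13 and 5.05 in 5EL and at 4.95, 5.02, 5.18 and 5.11 in 5ELKO. EL gave 5.05, 4.93 and 4.88 and ELKO gave 5.29, 7.56 and 4.95. The 2 libraries exceeded the mean of 5.07 ± 0.12 (SD, n = 13) by 2.24 log2 units, or 4.71-fold.

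Otx2 (chromosome 14, 48657677 to 48673819, minus strand), the only transcription factor among the 10, is a homeodomain protein that patterns forebrain and midbrain and is kept in adult plexus epithelium. Its values were 7.98, 7.70, 7.57, 7.25 and 7.76 in 5EL and 7.60, 7.57, 7.52 and 7.33 in 5ELKO. They were 7.54, 7.57 and 7.24 in EL and 7.63, 8.26 and 7.29 in ELKO. The groups did not overlap, but the gap was 0.21 log2 units and the difference 0.61 (1.53-fold) above 7.51 ± 0.17 (SD, n = 13), the smallest of the 10 genes. Its exons overlap those of the antisense gene Otx2os1 and of Gm49154, and the reads were counted without strand. The overlaps, counted for each of these genes separately, add up to 7.63% of its exon bases.

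Mfrp (chromosome 9, 44101729 to 44109187, plus strand) encodes a membrane protein with a frizzled-like domain that is best known from retinal pigment epithelium. It measured 6.62, 4.51, 4.63, 4.47 and 4.73 in 5EL and 4.57, 4.5, 4.66 and 4.5 in 5ELKO. EL values were 4.47, 4.62 and 4.46 and ELKO values 4.53, 6.88 and 4.44. The difference was 2.21 log2 units, or 4.62-fold, above 4.54 ± 0.09 (SD, n = 13). Its value is uncertain, because its exons overlap those of C1qtnf5, Gm20444 and Rnf26. The overlaps add up to 52.9% of its exon bases, with a base shared with several of these genes counted for each.

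Tmem72 (chromosome 6, 116679063 to 116716913, minus strand) encodes a transmembrane protein. Its 5EL libraries had 6.52, 4.48, 4.51, 4.41 and 4.46 and its 5ELKO libraries 4.43, 4.38, 4.67 and 4.47. The EL libraries had 4.35, 4.45 and 4.36 and the ELKO libraries 4.35, 6.66 and 4.38. The 2 libraries stood 2.15 log2 units (4.43-fold) above 4.44 ± 0.09 (SD, n = 13) and differed from each other by 0.14.

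Ranked by the log2 difference, the order was Ttr, Kl, F5, Car12, Mfrp, Slc4a5, Tmem72, Folr1, Aqp1 and Otx2. Among all 15804 tested genes, the first 7 held ranks 1 to 7 in that order, Folr1 rank 12, Aqp1 rank 13 and Otx2 rank 51. Ttr stood 1.80 log2 units above Kl, Kl 0.69 above F5, F5 0.44 above Car12, and Aqp1 1.14 above Otx2. The steps from Car12 to Mfrp (0.03), Mfrp to Slc4a5 (0.01), Slc4a5 to Tmem72 (0.05) and Folr1 to Aqp1 (0.11) were smaller than the SD of these genes over the 13 libraries, so neighbours in these steps were not separated. The first 3 places and the last 3 were the same for 5EL replicate 1 alone, for ELKO replicate 2 alone and for each library against its own genotype.

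The order depended on the measure. Divided by the SD over the 13 libraries, the difference was 24.6 for Mfrp, 24.2 for Tmem72, 23.7 for Slc4a5, 18 for Car12 and 17.6 for F5. Ttr, at 6.90, and Kl, at 10.5, fell to the ninth and eighth places, since their values varied most within the 13, and Otx2 remained last at 3.56. Mfrp, Tmem72 and Slc4a5, which led, also had the lowest means over the 13 libraries (4.54, 4.44 and 4.74). Their SDs of 0.09 were near the median within-group SD of 0.0857 for genes at that level. How far their places follow the drawing together of low values was not tested. On a linear scale (2 to the power of the deposited value) the difference was 19052 for Ttr, 832 for Kl and 270 for F5, and Otx2, at 96.1, moved from the tenth to the fifth place. Per kilobase of annotated exon, the linear difference was 16064 for Ttr, 89.2 for Kl, 37.1 for Folr1 and 36.4 for F5, and 4.33 for Tmem72, whose exon length of 17.2 kb is the longest.

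Levels were compared between genes only per kilobase of exon on the linear scale. These levels are not measured transcript abundances, because the transform is not given and low values were drawn together. Lilrb4a, for example, still had values up to 2.33 where it was deleted. How far the order of the genes follows the transform was not tested. Over the other 13 libraries the mean level was 494 per kb for Ttr, 43.4 for Otx2, 14.0 for Folr1, 11.3 for Aqp1, 9.73 for Kl and 6.69 for F5. It was 5.39 for Mfrp, 4.62 for Slc4a5, 4.44 for Car12 and 1.26 for Tmem72. In 5EL replicate 1 and ELKO replicate 2 the mean level was 16558 per kb for Ttr, 98.9 for Kl, 66.2 for Otx2, 51.1 for Folr1 and 43.0 for F5. Otx2 thus had the second highest level per kilobase outside the 2 libraries and the smallest fold difference within them. Kl had the fifth highest level outside them and the second highest within them.

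**Figure D2:**
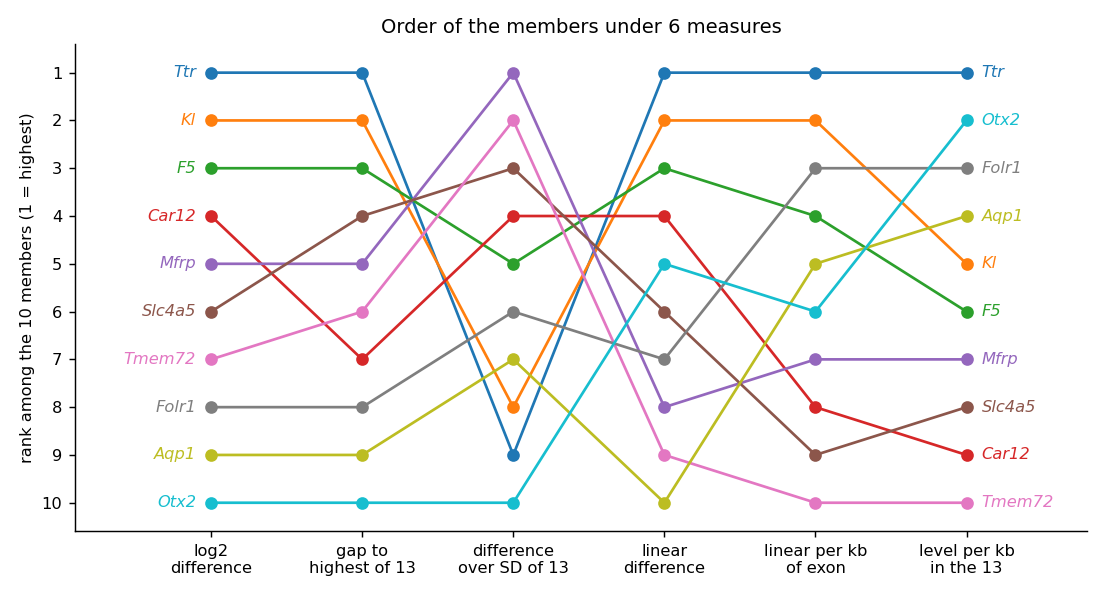
Rank of each of the 10 genes (vertical axis, 1 the highest) under 6 measures (horizontal axis): the log2 difference, the gap to the highest of the 13 libraries, the difference divided by the SD of the 13, the linear difference, that difference per kb of exon, and the level per kb in the 13. Ttr is first in 5 of the 6 and ninth when the difference is divided by the SD, where Mfrp leads at 24.6.

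Beyond the 10 genes, a list of 46 further choroid plexus genes was read in the same libraries. This list was chosen with earlier results of these data known, so its counts are a description. Of these, 42 were tested, 41 had a higher mean in the 2 libraries, 32 had both libraries above all other 13 and 0 had both below, with a median difference of 0.68 log2 units. Among the secreted proteins, 7 of 8 tested genes separated, led by Enpp2, which encodes autotaxin, at 14.03 and 14.43 against 11.88 to 12.35 (difference 2.07). Among ion and water transport genes, 6 of 10 separated, with Kcne2, a potassium channel subunit (1.91), Clic6, a chloride channel protein (1.87), and Kcnj13, a potassium channel (1.56), followed by Slc13a4, a sulfate transporter (1.47), Trpv4, a cation channel (1.02), and Slc4a2, an anion exchanger (0.41). Those that did not separate included Slc12a2, the sodium potassium chloride cotransporter (0.14), Slc4a10, a bicarbonate transporter (0.08), and Car2, the cytosolic carbonic anhydrase (-0.09). Among other transporters and enzymes, 7 of 10 separated, with Abca4 at 1.88 and Ace, the angiotensin-converting enzyme, at 1.44. Among receptors and junction proteins, 8 of 9 separated, with the tight junction gene Cldn2 at 1.73, and among regulators and others, 4 of 5.

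Of the 20 tested genes with the largest difference, 9 were among the 10 genes, 10 were on the list of further choroid plexus genes and 1, Slc2a12 (1.15), was on no list. The 10 genes and the further list were chosen with earlier results of these data known, so this overlap carries no test. Relatives and partners of the 10 genes did not share their pattern: 1 of 12 tested genes separated, the frizzled receptor gene Fzd4 (0.43), and the median difference was 0.05. The water channel of astrocytes, Aqp4, differed by -0.02 and the related bicarbonate cotransporter Slc4a4 by 0.04. The carbonic anhydrase of capillaries, Car4, stood at 8.44 and 8.70 in the 2 libraries and at 8.57 to 9.50 in the other 13 (difference -0.32).

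Markers of neighbouring tissues were read beside these values. Of the 7 tested ependymal genes 0 separated, with a median difference of 0.14 and a mean level of 5.20 and 5.63 in the 2 libraries, inside the 4.88 to 5.66 of the other 13. Of 7 fibroblast genes 1 did (Col1a2, 0.25), with a mean level of 6.51 and 6.60 against 6.30 to 6.55. Of these 7, 6 had a higher mean in the 2 libraries. Lum missed the separation narrowly, at 5.1216 and 5.4882 against a highest other value of 5.1229 (difference 0.35). Pituitary genes had 0 of 4, with a mean level of 3.26 and 2.96 against 2.79 to 3.21, and their highest member was Gh, at 6.69 in 5EL replicate 1 and 5.62 in ELKO replicate 2 against 4.76 to 6.97. Pineal genes had 0 of 1, with Asmt and Crx below 0 in all 15 libraries. Hepatocyte genes had 0 of 10 (4.74 and 4.66 against 4.5 to 5.41), border macrophages 0 of 3, endothelium 0 of 5, erythroid genes 0 of 3 and medial habenula 0 of 5. The endothelial gene Plvap missed the separation narrowly, at 6.3969 and 6.7401 against a highest other value of 6.3970 (difference 0.36). It was the 1 endothelial gene of 5 with a higher mean in the 2 libraries. Hippocampal genes had 1 of 5 (Dsp, 0.35). Genes of thalamic neurons had 0 of 6 and a mean level of 12.3 and 12.2 against 12.0 to 12.7, so markers of the labelled tissue were high in all 15 libraries. The part of the fibroblast, endothelial and pituitary genes in the difference was not tested.

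**Figure D3:**
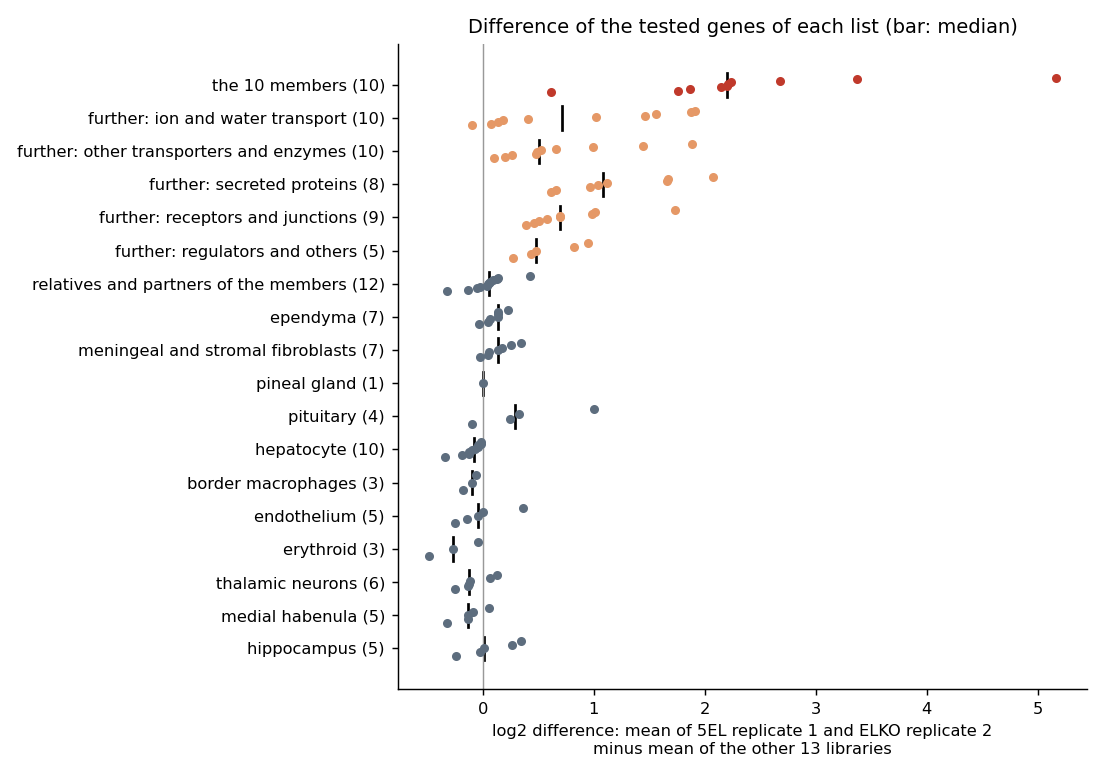
Log2 difference of 5EL replicate 1 and ELKO replicate 2 from the mean of the other 13 libraries (horizontal axis) for each tested gene of 18 lists (vertical axis, number of genes in brackets), with a bar at each list's median. The 10 genes range from 0.61 to 5.17 and the further choroid plexus classes have medians of 0.48 to 1.08, whereas every other list has a median between -0.27 and 0.29.

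Over all 15 libraries, the tested genes outside the 10 whose values followed the mean of the 10 most closely were Kcne2 (Pearson r = 0.993), Cldn2 (0.992), Abca4 (0.990), Kcnj13 (0.989) and Slc13a4 (0.988). Sema3b, Trpv4, Rbm47, Enpp2 and Steap1 came next, at 0.972 to 0.980. These values rest on the 2 libraries. Over the other 13 libraries the closest were Gm867 (0.924), Rd3 (0.910), Calml4 (0.906), Tmem212 (0.901) and Cd24a (0.899). None of these 5 was among the 10 closest over all 15 libraries, and Tmem212, an ependymal gene, differed by 0.05 and Cd24a by 0.02 between the 2 libraries and the 13.

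The order of the other 13 libraries was not used to choose the genes, so relations within them were tested. Ttr was set against each of the other 9 genes, and the 9 permutation p-values of each coefficient were adjusted together. The permutations treated the 13 libraries as independent. However, EL and ELKO libraries of the same number shared their deviations (correlations of 0.453 for replicates 1 and 0.742 for replicates 3). The p-values may therefore be too small. Kl followed Ttr most closely (Pearson r = 0.841, permutation p = 0.00039, adjusted p = 0.00234; Spearman rho = 0.874, permutation p = 0.00019, adjusted p = 0.00171). Folr1 (r = 0.801, permutation p = 0.00119, adjusted p = 0.00357) and Tmem72 (r = 0.792, permutation p = 0.00052, adjusted p = 0.00234) came next, with rho of 0.626 (permutation p = 0.0252, adjusted p = 0.0379) and 0.808 (permutation p = 0.00146, adjusted p = 0.00371). Slc4a5 had r = 0.763 (permutation p = 0.00228, adjusted p = 0.00513) and rho = 0.802 (permutation p = 0.00165, adjusted p = 0.00371). Mfrp had r = 0.746 (permutation p = 0.00323, adjusted p = 0.00581) and rho = 0.830 (permutation p = 0.00085, adjusted p = 0.00371). The relation was looser for F5, with r = 0.661 (permutation p = 0.0143, adjusted p = 0.0214) and rho = 0.637 (permutation p = 0.0220, adjusted p = 0.0379), and for Car12, with r = 0.637 (permutation p = 0.0195, adjusted p = 0.0251) and rho = 0.500 (permutation p = 0.0846, adjusted p = 0.109).

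Otx2 and Aqp1 did not pass. Otx2 had r = 0.547 (permutation p = 0.0538, adjusted p = 0.0605) and rho = 0.440 (permutation p = 0.136, adjusted p = 0.153). Aqp1 had r = -0.461 (permutation p = 0.133, adjusted p = 0.133) and rho = -0.253 (permutation p = 0.406, adjusted p = 0.406). Its negative sign rested on EL replicate 3, without which r was 0.0373, and without which 5 of the 9 relations passed instead of 7. Leaving out the 2 libraries farthest from the median of Ttr, EL replicate 3 and ELKO replicate 3, r over the remaining 11 was 0.816 for Tmem72 (permutation p = 0.00144), 0.686 for Kl (permutation p = 0.0208), 0.676 for Slc4a5 (permutation p = 0.0213) and 0.669 for Mfrp (permutation p = 0.0255). For Folr1 it was 0.601 (permutation p = 0.0516), for F5 0.547 (permutation p = 0.0824), for Car12 0.404 (permutation p = 0.218), for Otx2 0.190 (permutation p = 0.582) and for Aqp1 0.171 (permutation p = 0.612). Of the 7 relations that passed over 13 libraries, those of Folr1, F5 and Car12 did not reach an unadjusted p under 0.05 over these 11, and to that extent rest on the 2 libraries left out. The p-values over 11 libraries were not adjusted over the 9 relations, a looser criterion than the 1 used over 13. The relations of Kl, Slc4a5 and Mfrp (permutation p = 0.0208 to 0.0255) are therefore not shown to pass without the 2 libraries. With each genotype centred on its own mean, r was 0.650 to 0.865 for the 7 genes that passed, 0.509 for Otx2 and -0.370 for Aqp1. The labels used here gave no sequencing batch.

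Among all 45 pairs of the 10 genes over the 13 libraries, r was positive in 36, with a median of 0.536. All 36 pairs without Aqp1 were positive (0.0991 to 0.841) and 0 of the 9 pairs with Aqp1 (-0.512 to -0.214). The negative sign of Aqp1 with Ttr rested on EL replicate 3 (r = 0.0373 without it). The other pairs with Aqp1 were not computed without that library. The pairs share libraries and genes and are given without a test.

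Ependymal genes moved with Ttr over the same 13 libraries. Of all other tested genes, 3.71% had an r with Ttr at least as high as the 0.637 of Car12, the lowest of the 7 genes that passed. All 7 tested ependymal genes did, with r from 0.728 for Foxj1, the regulator of motile cilia, to 0.901 for Tmem212 and a median of 0.854. That median was above the 0.746 of the other 9 choroid plexus genes. Of the 42 further choroid plexus genes 16 reached that value (median 0.384, from -0.695 to 0.880), and Calml4 was the highest of them. Medial habenula genes reached it in 2 of 5 (median 0.634), and genes of thalamic neurons in 0 of 6, with a median of -0.668. Fibroblast, pituitary, hepatocyte, macrophage, endothelial and erythroid genes reached it in 0 of 7, 4, 10, 3, 5 and 3. Over the 13 libraries the mean level of the ependymal genes ran from 4.88 to 5.66, that of the habenular genes from 6.99 to 9.40 and that of the thalamic neuron genes from 12.0 to 12.7, and their part in the relations of Ttr was not tested.

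**Figure D4:**
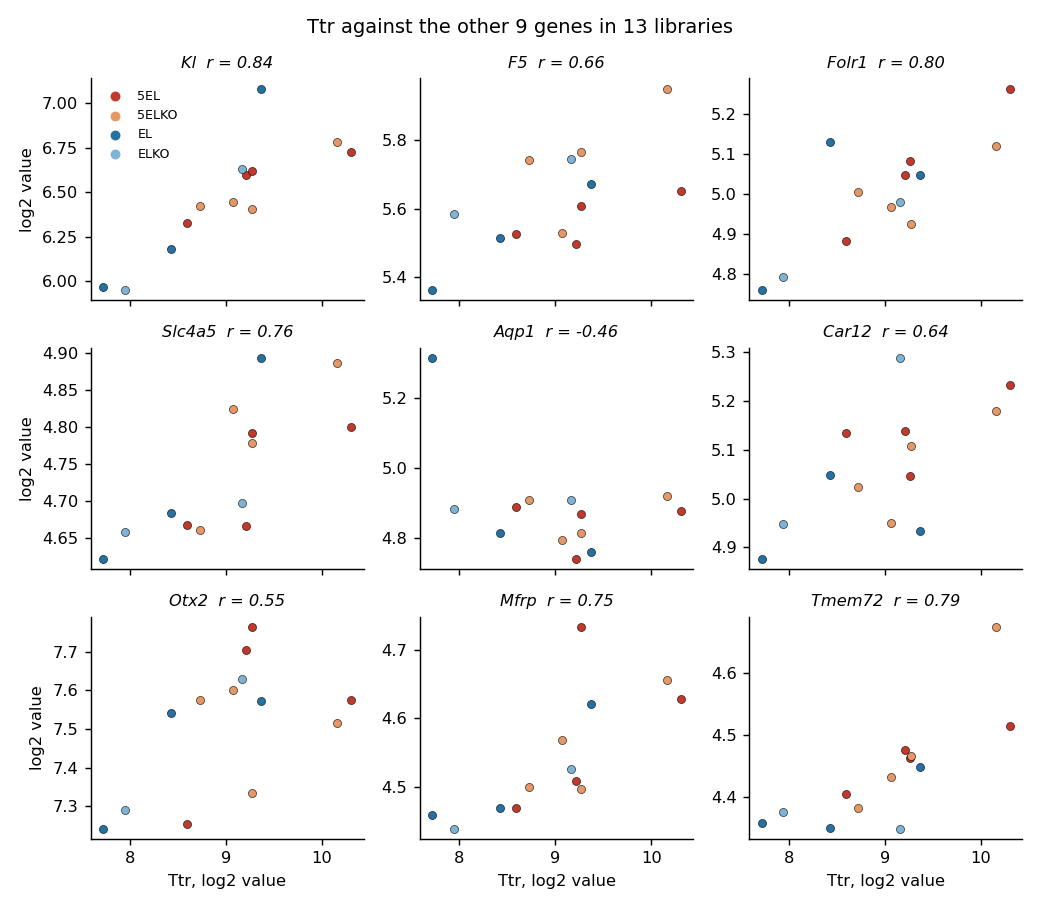
Log2 value of each of the other 9 genes (vertical axes) against that of Ttr (horizontal axes) in the 13 libraries other than 5EL replicate 1 and ELKO replicate 2, 1 point per library coloured by genotype, with Pearson r above each panel. Kl has the tightest relation (r = 0.84), and in the Aqp1 panel a single EL library lies at 5.31 with the lowest Ttr value of 7.72.

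The study sequenced this tissue to compare 5ELKO with 5EL. It gives quality values for 5ELKO libraries 1 to 5, whereas the data used here held 4 libraries of that group. Of the 10 genes, 0 reached an adjusted p under 0.05 (limma with Benjamini-Hochberg adjustment over 15743 genes, of which 3, or 0.0191%, did) and 0 a nominal p under 0.05 (2.49% did). All 10 were lower in 5ELKO, with a median of -0.39 log2 units and a range from -0.91 (Ttr, standard error 0.81) to -0.15 (Otx2, standard error 0.12), and the smallest adjusted p of the 10 was 0.999. This direction depended on 1 library. Without 5EL replicate 1, 4 of the 10 were higher and 6 lower, with a median of -0.03 and a range from -0.07 to 0.18. Differences were -0.04 for Ttr and -0.05 for Kl, and F5 had the largest, 0.18 (standard error 0.08). At a nominal p under 0.05 there were 0 of the 10 genes against 3.07% of all genes in limma, and at an adjusted p under 0.05 there were 0 against 0.0191%. With that library the 5EL mean of Ttr was 10.22 ± 2.05 (SD, n = 5) and without it 9.34 ± 0.71 (SD, n = 4), against 9.31 ± 0.61 (SD, n = 4) in 5ELKO.

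The comparisons with the EL and ELKO groups were fitted on all 15 libraries and share these groups with each other and with the comparison above. For ELKO against EL, 0 of the 10 genes passed an adjusted p under 0.05 in limma (0% of 15804 genes) or a nominal p under 0.05 (2.35%), and all 10 were higher in ELKO, by 0.27 (Otx2) to 2.09 (Ttr, standard error 1.40), median 0.75. Without 5EL replicate 1 and ELKO replicate 2, 4 of the 10 were higher, the median was -0.03, and 0 of 10 had a nominal p under 0.05 in limma (1.18% of all genes). With same-numbered EL and ELKO libraries as pairs in the fit of all 15, 0 of the 10 genes had a nominal or an adjusted p under 0.05 in limma, and 997 of 15804 genes had a nominal p under 0.05 against 372 without the pairing. In a fit of their 6 libraries alone, the count was 1110 of 15727 genes with the pairing and 173 without it, and again 0 of the 10. The pairing was taken from these same values, so the higher counts say nothing about whether it is real. Without ELKO replicate 1 alone the median was 1.14, and without ELKO replicate 3 it was 1.162. With ELKO replicate 1, whose mouse Apoe stood apart, left out beside ELKO replicate 2, the ELKO group was 1 library, assumed to vary like the others, and the median was -0.08.

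For 5EL against EL, 0 of 10 genes passed an adjusted p (0%) or a nominal p under 0.05 (7.7% of all genes), all 10 were higher in 5EL and the median was 0.48, from 0.20 (Aqp1 and Otx2) to 1.71 (Ttr, standard error 1.26). Without both libraries, 8 of 10 were higher, with a median of 0.08, 0.84 for Ttr (standard error 0.46, limma adjusted p = 0.721) and 0.19 for Car12 (standard error 0.08, limma adjusted p = 0.713). Car12 was then the 1 gene of 10 at a nominal p under 0.05, against 6.76% of all genes. Without 5EL replicate 1 alone, 0 of the 10 had a nominal p under 0.05 in limma. For 5ELKO against ELKO, 0 of 10 passed an adjusted p (0%) or a nominal p (2.37% of all genes), and all 10 were lower in 5ELKO, with a median of -0.70, from -1.28 (Ttr) to -0.22 (Otx2). Without both libraries, 8 of 10 were higher, with a median of 0.10 and 0.75 for Ttr (standard error 0.52), and 0 of 10 had a nominal p under 0.05 in limma (1.91% of all genes). Without ELKO replicates 1 and 2 the median was 0.15, without ELKO replicate 1 alone it was -1.08 and without ELKO replicate 3 it was -1.12.

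The interaction of Lilrb4a and 5xFAD, the 5ELKO-5EL difference minus the ELKO-EL difference, was below 0 for all 10 genes, with a median of -1.17 log2 units. It ran from -3.0 for Ttr (standard error 1.82) to -0.42 for Otx2, and 0 of 10 passed an adjusted p (0%) or a nominal p under 0.05 in limma (2.73% of all genes). Without both libraries, 7 of 10 were above 0, with a median of 0.03, and 0 of 10 had a nominal p under 0.05 (1.84% of all genes). Ttr was then at -0.09 (standard error 0.69). The median was -0.32 without ELKO replicates 1 and 2 and -1.55 without ELKO replicate 1 alone. With EL and ELKO libraries paired, 788 of 15804 genes had a nominal p under 0.05 against 432 unpaired, and Car12 was the 1 gene of 10 among them (-1.44, standard error 0.63, limma adjusted p = 0.961). In each of the 5 comparisons the standard error of Ttr fell when the 2 libraries were left out, to 0.34 from 0.81 for 5ELKO against 5EL.

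**Figure D5:**
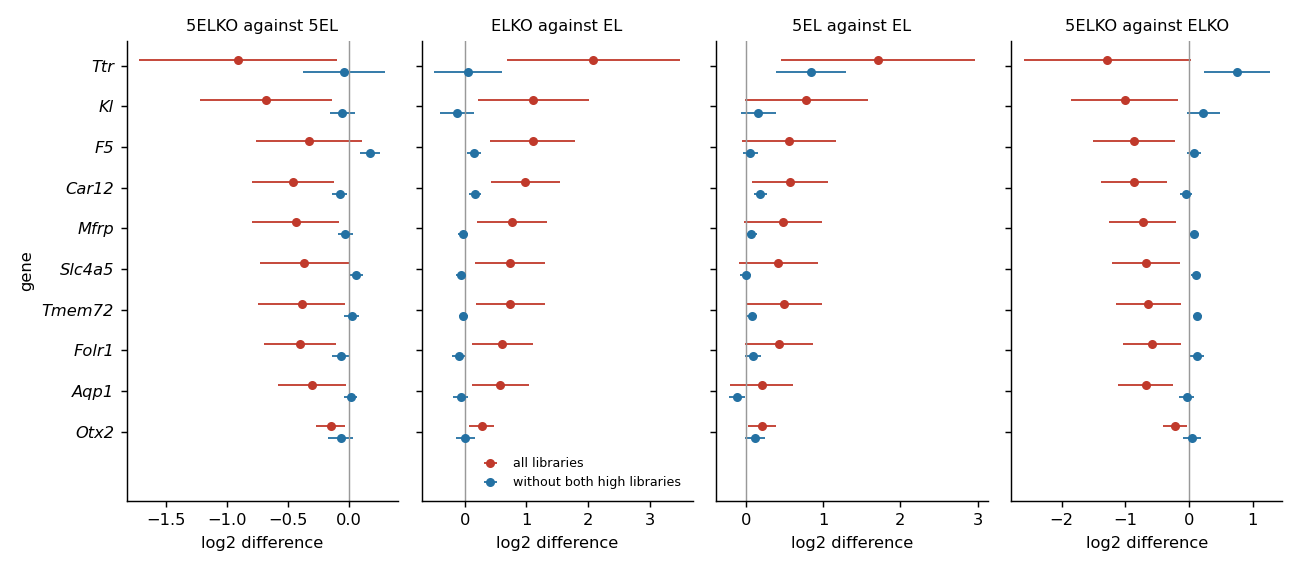
Log2 difference (horizontal axes, points with bars of 1 standard error from limma) of the 10 genes (vertical axis) in 4 comparisons of genotypes, with all libraries (red) and without 5EL replicate 1 and ELKO replicate 2 (blue). Ttr moves from -0.91 to -0.04 for 5ELKO against 5EL and from 2.09 to 0.05 for ELKO against EL, and 0 genes pass an adjusted p under 0.05 in either setting.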

How the data were processed

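Bulk RNA-seq libraries of thalamus from 15 mice were analysed, grouped by the genotype in the labels. Mice had been perfused with saline and the right hemisphere dissected. Per the study's methods and the submitters' processing notes, reads were checked with FastQC 0.11.9, trimmed with Trimmomatic 0.39, aligned to GRCm38 with HISAT2 2.2.1 and SAMtools 1.16.1, and counted with featureCounts 2.0.3 (read pairs over exons, summed by gene name, strand ignored). The authors ran their differential expression with DESeq2 1.38.3. The authors deposited log2 values per gene, not counts. The transform and the annotation release are not given in the sources used here.

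The 10 genes and every other list were chosen with earlier results of these data known. Genes were tested where the number of libraries at or above a log2 value of 3.32 was no smaller than the smallest group (15743 over 9 libraries, 15804 over 15) with limma 3.58.1 in R 4.3.3 (lmFit, eBayes with trend) and Benjamini-Hochberg adjustment over all of them. 5ELKO against 5EL was fitted on its 9 libraries and the other comparisons on all 15. Relations over 13 libraries used two-sided permutation tests (100000 permutations) in Python 3.11.15 with numpy 2.4.6 and scipy 1.17.1. The p-values measure the spread between libraries of single mice. Named genes were the 10 genes, the 10 and 5 genes most like their mean over 15 and 13 libraries, up to 4 of each list with the largest difference of the 2 libraries from the 13, Lilrb4a and Apoe. Genes named outside this rule, such as Slc2a12, Slc12a2, Car2, Alb, Asmt and Foxj1, were chosen after their values were seen. Coordinates and exon lengths came from GENCODE M21 (GRCm38), which holds 28214 of the 29659 symbols. Fits were tested on simulated data.

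EL and ELKO libraries with the same number shared their deviations from the group means (correlations of 0.453, 0.325 and 0.742), so their numbers were taken to pair them. Neither the labels nor the methods say what they share. Those of the other comparisons did not all exceed 0.1 (-0.320 to 0.228). Alternatives were the filter, centring, the variance prior, a replicate block, all libraries or the 2 groups alone in one fit, each library left out, and both high libraries left out.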

Additional observations from a re-analysis of the deposited data

Results flagged for a closer look

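Each gene was examined in the groups of 4 and 5 libraries, 20 groups in all, for a library whose gap to its nearest neighbour took up an unusually large part of the group's range. In 5EL, replicate 1 stood apart for 8 genes. The gap was 0.949 of the range for Tmem72, 0.940 for F5, 0.938 for Slc4a5, 0.913 for Aqp1, 0.907 for Car12, 0.881 for Kl, 0.878 for Mfrp and 0.794 for Folr1, but this library had been chosen for these values, so the gaps are a description with no test. In 5ELKO, replicate 3 stood apart for Kl, at 6.78 against 6.40 to 6.44, with a gap of 0.899 of the range, past Dixon's 95% critical value for 4 libraries. Chance marks about 1 in 20 groups, and 10 were examined in 5ELKO. The EL and ELKO groups, with 3 libraries each, were not examined in this way.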

How the results depend on the processing

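In each alternative run that set 5EL replicate 1 and ELKO replicate 2 against the others, all 10 genes had both libraries above them. The 2 libraries were chosen for this property, so it is a description. In each alternative run of the 5 comparisons, 0 of the 10 genes reached an adjusted p under 0.05 (limma). The directions depended on the 2 libraries. The interaction's median was 0.0275 without 5EL replicate 1 and ELKO replicate 2, against -1.17 with them. For 5ELKO against 5EL, 4 genes turned to positive differences both without these 2 libraries and without 5EL replicate 1 alone: F5 (0.177), Slc4a5 (0.0564), Aqp1 (0.0163) and Tmem72 (0.0242). Leaving out each library in turn, their ranges were -0.470 to 0.177, -0.485 to 0.0564, -0.411 to 0.0163 and -0.503 to 0.0242. Without ELKO replicate 3, 4 genes reached a nominal p under 0.05 in ELKO against EL, where 1375 of all 15804 genes did. In 5ELKO against ELKO 3 genes did (293 of all 15804), and in the interaction 7 (850 of all 15804). So did Otx2 in 5ELKO against 5EL without 5EL replicate 4 (347 of all 15743 genes). Car12 did in the interaction without ELKO replicate 1 (435 of all 15804). Each of these fits kept a library chosen for its high values of these genes, so the counts are a description. With the replicate block that pairs EL and ELKO libraries, the median of ELKO against EL was 0.75, as without it. In the interaction Car12 then reached a nominal p under 0.05, as did 788 of all 15804 genes. With the block by number, whose libraries are not paired by the check above, 2 genes reached a nominal p under 0.05 in 5EL against EL. Of all 15759 genes 1013 did, and this fit kept 5EL replicate 1, chosen for its high values of these genes. The block by number in 5ELKO against 5EL and 5ELKO against ELKO changed no call of the 10 genes. Over the alternatives with adjusted p-values, the count of genes related to Ttr was 5 to 8 of 9, 5 without EL replicate 3. The relations over 11 libraries were not adjusted and are not in this range. There, Folr1, F5 and Car12 had unadjusted permutation p-values above 0.05, and fewer relations may pass. Ranks on the linear scale, the fits without ELKO replicates 1 and 2, the pairing in the fit of 15 libraries, the unpaired fits of 2 groups, and the count of genes whose high library stood above its own genotype (10 of 10) were chosen after seeing the data. The reads behind the low values of Tmem72 and Mfrp cannot be read from the files, which limits statements on their precision.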
